A study of Mus musculus with 8 samples.

Results

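Macrophage migration inhibitory factor (MIF) and the genes that work with it were followed across the marrow cells of 4 mouse libraries. The set held 7 genes of the 31054 features in each count matrix: the ligands Mif and Ddt, the receptors Cd74, Cd44, Cxcr4 and Ackr3, and the intracellular partner Cops5. They were taken by symbol, and each symbol occurred once.

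MIF is a small protein that cells store ready-made and release, and it acts as a cytokine that holds macrophages in place and sustains inflammation. It binds CD74, which has a short cytoplasmic tail and passes the signal on together with CD44 or with the chemokine receptors CXCR4 and ACKR3. D-dopachrome tautomerase, the product of Ddt, is its closest relative and also binds CD74. CD74 has another role as the invariant chain that escorts MHC class II molecules, and inside the cell MIF binds COPS5 (JAB1), the catalytic subunit of the COP9 signalosome.

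The study used a retroviral transplant model of myeloproliferative neoplasm to ask about Gli1, a hedgehog pathway transcription factor. Irradiated female B6.SJL recipients of 8 to 10 weeks (10.5 Gy) had received marrow of 8-week-old donors, taken 48 hours earlier and transduced with a retrovirus for JAK2V617F, the constitutively active kinase, or for JAK2WT. Marrow of 3 mice per condition was taken 112 days after transplantation, pooled after magnetic removal of lineage cells (antibodies to CD3, B220, TER119, GR1 and CD11b), sorted as viable lineage-negative cells with and without GFP, and run as droplet single-cell RNA-seq. The groups were Gli1 KO donors with JAK2V617F, Gli1 KO donors with JAK2WT, WT donors with JAK2V617F and WT donors with JAK2WT. All recipients were irradiated and received cells exposed to a retrovirus. In the following, they are called Gli1 KO JAK2V617F, Gli1 KO JAK2WT, WT JAK2V617F and WT JAK2WT. Each was 1 library, so differences are given without a test or any check by replicates, and intervals are exact 95% Poisson or binomial ones that cover counting error only.

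After filtering, 6035 cells remained in Gli1 KO JAK2V617F, 3770 in Gli1 KO JAK2WT, 3432 in WT JAK2V617F and 7196 in WT JAK2WT. WT JAK2WT stood apart in depth, with a median of 4404.5 UMIs per cell against 13213.5 to 17312 in the others, so detection rates are given after thinning every cell to 1000 UMIs. The kept cells held 4, 0, 2 and 0 UMIs of Gli1 in that order of libraries, too few to check the knockout. Y-linked genes gave 11875 and 9055 UMIs in the Gli1 KO libraries but 1 in each WT library, so the donors' sex went with the genotype and cannot be told apart from it. GFP transcripts were found in 59, 6, 89 and 41 cells, too few to compare transduced cells with the rest. Library pairs shared 5 to 14 cell barcodes. Clustering gave 36 clusters, and a cell type's name stands for clusters whose markers are like those of that type. Some clusters stayed unnamed, among them cluster 2 (Pf4 with histone and mitosis genes), cluster 4 (Cpa3, Myc and Cebpa) and cluster 5 (F13a1, Ms4a6c and Ccr2), whose best marker list was that of HSC/MPP or of granulocyte-monocyte progenitors, and cluster 30 (Fscn1, Ccr7, Il4i1 and MHC class II genes).

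Promoters of 4 members are printed to show the letters before the start of both ligands and of both chemokine receptors. Each is the 250 bases before the annotated start, read 5′ to 3′ on the gene's strand from RefSeq (GRCm38.p6), and capitals mark the motifs named after them.
Mif, chr10:75860278-75860527, minus strand: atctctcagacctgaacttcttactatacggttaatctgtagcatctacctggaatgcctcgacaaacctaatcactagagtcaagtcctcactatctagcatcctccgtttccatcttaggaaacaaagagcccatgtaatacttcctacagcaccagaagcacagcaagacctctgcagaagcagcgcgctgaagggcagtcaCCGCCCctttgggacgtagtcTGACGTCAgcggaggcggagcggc
Ddt, chr10:75773375-75773624, minus strand: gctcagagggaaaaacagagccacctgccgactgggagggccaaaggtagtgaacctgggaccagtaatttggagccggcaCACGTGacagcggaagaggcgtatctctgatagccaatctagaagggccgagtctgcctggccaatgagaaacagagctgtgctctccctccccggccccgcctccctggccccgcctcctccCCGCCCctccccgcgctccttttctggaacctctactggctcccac
Cxcr4, chr1:128592300-128592549, minus strand: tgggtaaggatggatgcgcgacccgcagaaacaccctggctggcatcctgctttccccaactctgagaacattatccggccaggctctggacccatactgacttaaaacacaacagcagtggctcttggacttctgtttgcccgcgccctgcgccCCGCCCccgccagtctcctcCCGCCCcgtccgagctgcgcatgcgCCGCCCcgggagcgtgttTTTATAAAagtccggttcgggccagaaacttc
Ackr3, chr1:90203730-90203979, plus strand: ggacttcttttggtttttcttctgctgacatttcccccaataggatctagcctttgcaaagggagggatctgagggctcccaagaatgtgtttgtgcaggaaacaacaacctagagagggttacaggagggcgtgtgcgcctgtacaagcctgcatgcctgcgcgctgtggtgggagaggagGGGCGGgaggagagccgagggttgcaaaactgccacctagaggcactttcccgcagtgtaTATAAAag
Searching both strands, the capitals mark the GC box GGGCGG in all 4, the full cAMP response element TGACGTCA in Mif, the E-box CACGTG in Ddt and the TATA box TATAAA in Cxcr4 and Ackr3. The cAMP response element began 24 bases before the RefSeq start of Mif and stood in 1.55% of the 32851 promoters of the same length. Gene coordinates given below are from GENCODE, whose starts of Mif, Ddt and Cxcr4 differ from those used here. Part of the Ddt window lies inside the GENCODE gene. The GC box stood in 32.7% of them, the E-box in 6.02% and the TATA box in 12.4%. The STAT palindrome TTCNNNGAA occurred in 7.02% of all promoters and in none of the 5 member promoters searched, which included Cd44. The hypoxia-type cores ACGTG (16.6% of promoters, and part of the E-box CACGTG) and GCGTG (28.2%) were found in Ddt and Cd44, and in Cxcr4 and Ackr3. These matches describe the letters in the window and say nothing of binding.

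Mif was detected in every named cell type, most strongly in progenitors. Its level in CPM (UMIs of the gene scaled to the same UMI total in each set of cells) over all kept cells was 727 in Gli1 KO JAK2V617F, 656 in Gli1 KO JAK2WT, 848 in WT JAK2V617F and 671 in WT JAK2WT. At 1000 UMIs per cell, 42.7%, 41.7%, 46.3% and 43.1% of cells had a Mif UMI, a narrow range across libraries of unlike makeup. Mif lies on chromosome 10 (75859353 to 75860240, minus strand, GRCm38), and the annotation also holds processed pseudogenes of it, so reads that fit more than 1 copy may be missing from these counts.

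Myeloid progenitors had the highest Mif. In cluster 5 it reached 1095 CPM in Gli1 KO JAK2V617F, 840 CPM in Gli1 KO JAK2WT, 1290 CPM in WT JAK2V617F and 989 CPM in WT JAK2WT. Granulocyte-monocyte progenitors and promyelocytes (Elane, Mpo, Ms4a3) had 795, 937, 1134 and 838 CPM in the same order, and the stem and multipotent progenitors (HSC/MPP: Hlf, Meis1, Angpt1) had 666, 639, 766 and 859 CPM. Cluster 4 (842 to 987 CPM), cluster 2 (770 to 1084 CPM) and erythroid cells (645 to 730 CPM) lay in the same range, and neighbours in this order overlapped between libraries. High Mif was not limited to cells named as progenitors. The unnamed cluster 6 (Acta1, Bglap and Mbp), of 1019 shallow cells with a median of 1376 UMIs, had 792 to 977 CPM.

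At the low end stood mature secretory and effector cells. Plasma cells had 105 CPM of Mif in Gli1 KO JAK2V617F, 81.5 in Gli1 KO JAK2WT, 106 in WT JAK2V617F and 160 in WT JAK2WT. Neutrophils had 94.9, 209, 190 and 289 CPM, and the stromal cells 310, 162, 193 and 292 CPM, in that order of libraries. In every library plasma cells lay below HSC/MPP, granulocyte-monocyte progenitors and clusters 2, 4 and 5.

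Within the lymphoid and plasmacytoid classes of WT JAK2WT, clusters led by genes of early development had more Mif in CPM than the others. T cell clusters 19 (Rag1, Bcl11b) and 21 (Il2ra, Bcl11b) held 800 and 896 CPM of Mif in WT JAK2WT, and the Ccl5 and Gzma T cell cluster 10 held 540 CPM there. B lineage clusters 20 and 25 (Vpreb3, Igll1) held 578 and 809 CPM in that library, and the Ms4a1 B cell cluster 23 held 364 CPM. Dntt-positive plasmacytoid cells of cluster 7 had 473 CPM of Mif in WT JAK2WT, against 285 CPM in the Siglech and Ccr9 cells of cluster 28. Cluster 1 (Igll1, Vpreb1) had 840 CPM there. Each of these clusters had at least 102 cells in WT JAK2WT. In Gli1 KO JAK2V617F and Gli1 KO JAK2WT, cluster 7 had 521 and 482 CPM of Mif (36 and 178 cells) and cluster 10 had 364 and 405 CPM (66 and 54 cells), and cluster 20 had 832 CPM in Gli1 KO JAK2V617F (24 cells).

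The progenitors held a larger share of the Mif transcripts than of all UMIs in each library. HSC/MPP, granulocyte-monocyte progenitors and clusters 2, 4 and 5 together contained 83.0% of the Mif UMIs of Gli1 KO JAK2V617F, 71.8% of Gli1 KO JAK2WT, 61.4% of WT JAK2V617F and 44.8% of WT JAK2WT. They held 74.6%, 56.0%, 50% and 32.7% of all UMIs, and made up 63.8%, 40.7%, 39.0% and 15.5% of the kept cells. In WT JAK2V617F a further 29.5% came from erythroid cells, whose clusters 9 and 13 were 21.2% and 14.7% of its cells. Erythroid cells gave 0.727%, 1.02% and 2.37% in Gli1 KO JAK2V617F, Gli1 KO JAK2WT and WT JAK2WT, where 44, 51 and 79 cells were erythroid. T cells, from clusters 10, 19 and 21, added 10.9% in WT JAK2WT. As the loading ratio of the sorted fractions is not stated, these shares describe the libraries and not the marrow.

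**Figure D1:**
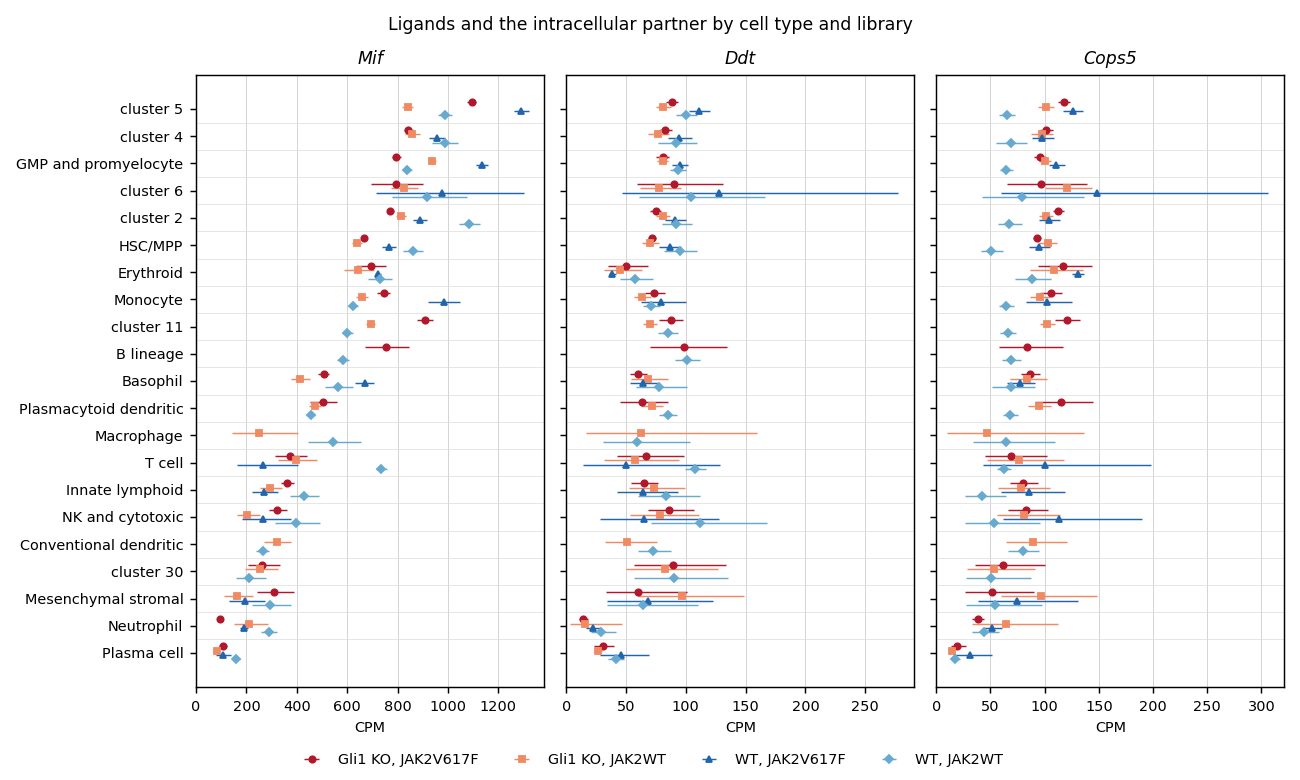
Level of Mif, Ddt and Cops5 (CPM, horizontal axes from 0) in each cell type or unnamed cluster with at least 20 cells in more than 1 library. Rows follow the median Mif level, symbols are the 4 libraries and bars are 95% Poisson intervals. Cluster 5 has the top row, cluster 4 and granulocyte-monocyte progenitors follow, and plasma cells lie at 81.5 to 160 CPM. Cluster 34 (Ms4a3, Rhd), with 27 cells of WT JAK2V617F and 1187 CPM of Mif, is not drawn.

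Ddt, the second ligand, varied less between cell types. Over all kept cells it had 73.7 CPM in Gli1 KO JAK2V617F, 68.1 CPM in Gli1 KO JAK2WT, 70.1 CPM in WT JAK2V617F and 85.7 CPM in WT JAK2WT. Cluster 5 had 88.3, 81.2, 111 and 100 CPM in that order, while neutrophils had 14.2, 16.1, 22.1 and 29.5 CPM and plasma cells 30.9, 27.0, 45.8 and 41.4 CPM. Erythroid cells departed from Mif, with 49.7, 45.1, 38.5 and 57.7 CPM of Ddt beside high Mif. Ddt lies on chromosome 10 (75771230 to 75773414, minus strand), near Mif, and shares its strand and part of its length with Gm20441, so reads common to both cannot be assigned. Across 58 sums of a cell type in a library, Mif and Ddt had a Pearson r of 0.74 on the log2 scale, a description of sums that share libraries and depth.

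The genes most like Mif over the same 58 sums were Naa50 (r = 0.96), Npm1 (0.96), Snrpf (0.95), Ndufa4 (0.95) and Mrpl36 (0.95). They encode an N-terminal acetyltransferase, a nucleolar chaperone of ribosome assembly, a splicing protein, a mitochondrial respiratory chain protein and a mitochondrial ribosomal protein. For Ddt the closest were Fkbp3 (0.85), Nudt14 (0.85) and Srp14 (0.84).

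Cd74 had the sharpest pattern of the receptors. Cluster 30, with its Ccr7 and Fscn1, held 31131 CPM in Gli1 KO JAK2V617F, 9586 CPM in Gli1 KO JAK2WT and 17396 CPM in WT JAK2WT, and 7 cells of WT JAK2V617F gave 14897 CPM. Conventional dendritic cells held 15864 CPM in Gli1 KO JAK2WT and 13574 CPM in WT JAK2WT, and the 15 and 5 such cells of Gli1 KO JAK2V617F and WT JAK2V617F gave 25658 and 14412 CPM. Ms4a1 B cells of cluster 23 followed with 10036 CPM in WT JAK2WT, and the plasmacytoid cells of cluster 28 with 5174 CPM in that library. Macrophages (C1qa, Vcam1) had 8693 CPM in Gli1 KO JAK2WT and 2809 CPM in WT JAK2WT. The levels of these antigen-presenting types vary between libraries by more than their counting error, with 20 to 205 cells behind each value except where stated and no replicate.

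Plasma cells were the most regular source, with 2965 CPM of Cd74 in Gli1 KO JAK2V617F, 3939 CPM in Gli1 KO JAK2WT, 2264 CPM in WT JAK2V617F and 3233 CPM in WT JAK2WT. At 1000 UMIs, 86.0%, 94.3%, 78.8% and 90.1% of plasma cells had a Cd74 UMI. NK-like cells (Ncr1, Xcl1) had 1283, 1823, 1247 and 458 CPM, lowest in WT JAK2WT. Clusters 20 and 25 had 739 and 213 CPM of Cd74 in WT JAK2WT, and cluster 1, led by Igll1 and Vpreb1, had 865 CPM.

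The innate lymphoid class joined a pair of clusters with very different Cd74. Cluster 8, led by Gata3, Il7r and Il1rl1, had 774 CPM in Gli1 KO JAK2V617F, 362 CPM in Gli1 KO JAK2WT, 900 CPM in WT JAK2V617F and 337 CPM in WT JAK2WT. Cluster 24, led by Il7r, Rora, Ltb and the MHC class II genes H2-Aa and H2-Eb1, had 9027, 10555, 9293 and 5203 CPM. It contributed 117, 36, 43 and 17 cells to the class, beside 432, 94, 131 and 155 cells of cluster 8. The mix differed between libraries, and WT JAK2WT had the smallest part of cluster 24.

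Erythroid cells, which are not known for Cd74, gave a low level to set the others against: 1.31 CPM in Gli1 KO JAK2V617F, 13.3 CPM in Gli1 KO JAK2WT, 12.7 CPM in WT JAK2V617F and 29.6 CPM in WT JAK2WT. Granulocyte-monocyte progenitors, with 4.28, 6.24, 2.11 and 29.5 CPM of Cd74, were at or below it except in Gli1 KO JAK2V617F, and cluster 5 had 7.15, 7.09, 0.892 and 25.1 CPM. In WT JAK2V617F cluster 5 lay well below the erythroid cells. Cluster 5 was deeper, with a median of 29337.5 UMIs over all libraries against 14258 and 12466 in the erythroid clusters 9 and 13. The part of free RNA in either level was not tested. At 1000 UMIs 0.265%, 0.242%, 0.645% and 2.18% of granulocyte-monocyte progenitors had a Cd74 UMI, and their values are not read as expression. HSC/MPP stood above all these levels in all 4 libraries. They had 52.2 CPM (49.4 to 55.2) in Gli1 KO JAK2V617F and 122 CPM (113 to 131) in Gli1 KO JAK2WT, and 61.3 CPM (53.9 to 69.4) in WT JAK2V617F and 163 CPM (146 to 181) in WT JAK2WT. The JAK2V617F library was lower in both genotypes, and at 1000 UMIs 4.72% and 4.09% of HSC/MPP had a Cd74 UMI with JAK2V617F, in Gli1 KO and WT, against 10.2% and 15.4% with JAK2WT. Erythroid cells gave 0%, 3.92%, 0.731% and 3.80% at that depth, with median depths of 10197 to 14968 UMIs before thinning, beside 9327 to 14119 in HSC/MPP. The part of the unequal free RNA in this difference was not tested.

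Cd74 transcripts sat in few cells in the JAK2V617F libraries and in more cells in the JAK2WT libraries. With JAK2V617F, 10.9% of cells in Gli1 KO and 5.80% in WT had a Cd74 UMI after thinning. With JAK2WT these shares were 19.3% and 32.3%. Over all kept cells Cd74 had 337 and 106 CPM with JAK2V617F and 816 and 1110 CPM with JAK2WT, in Gli1 KO and WT. Dendritic cells, cluster 30, plasmacytoid cells, macrophages, B cells and plasma cells held most Cd74 transcripts in each library. Their share was 67.6% in Gli1 KO JAK2V617F, 91.3% in Gli1 KO JAK2WT, 58.5% in WT JAK2V617F and 89.1% in WT JAK2WT. These types were 3.35%, 16.8%, 1.84% and 27.8% of the cells in that order. Plasma cells alone gave 71.2% in Gli1 KO JAK2WT, against 16.2%, 19.7% and 19.8% in Gli1 KO JAK2V617F, WT JAK2V617F and WT JAK2WT. In the JAK2V617F libraries the innate lymphoid class gave 18.1% in Gli1 KO and 25.1% in WT, against 3.46% and 0.645% with JAK2WT. HSC/MPP, granulocyte-monocyte progenitors and clusters 2, 4 and 5 gave 1.34% to 6.95% of the Cd74 transcripts. Outside WT JAK2WT they held 61.4% to 83.0% of the Mif transcripts, so there Mif and Cd74 transcripts lay mostly in different cell types. In WT JAK2WT they held 44.8% of the Mif transcripts. Cluster 1 had both in that library, with 840 CPM of Mif and 865 CPM of Cd74.

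**Figure D2:**
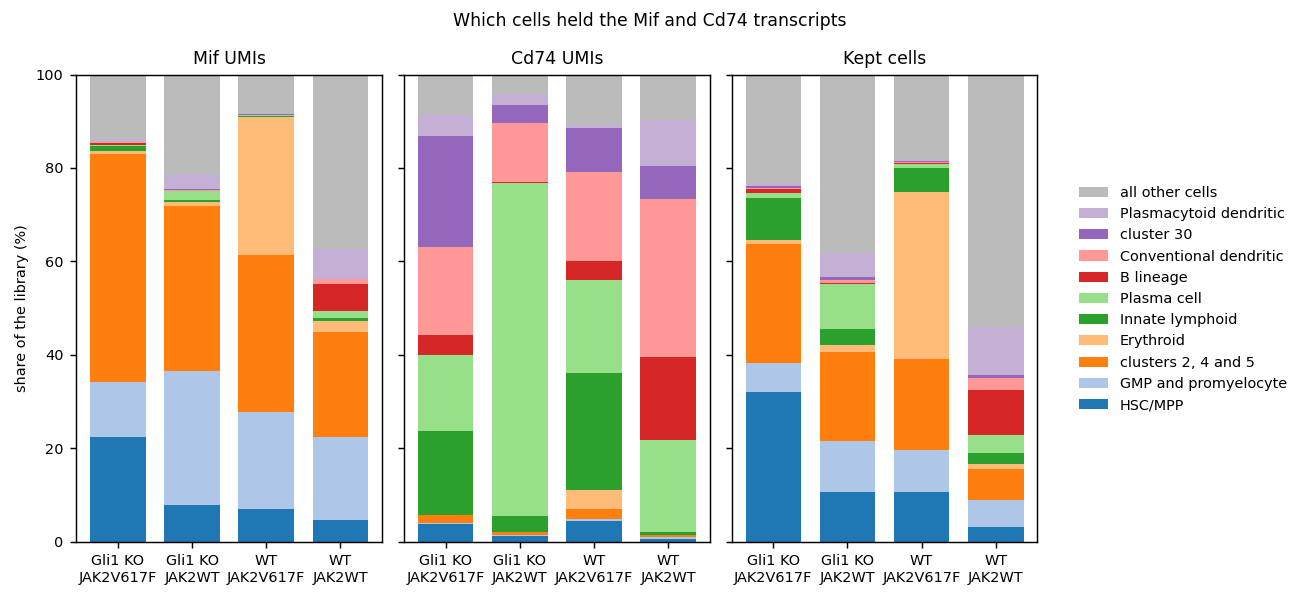
Share (%) of all Mif UMIs, all Cd74 UMIs and all kept cells that each cell type held in each library, stacked to 100%. Stem cells and myeloid progenitors fill 44.8% to 83.0% of the Mif bars, and dendritic, B, plasma and innate lymphoid cells most of the Cd74 bars.

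H2-Eb1 (r = 0.91), H2-Aa (0.90) and H2-Ab1 (0.85), which encode MHC class II chains, were the genes most like Cd74, followed by Sdc4 (0.80) and Ckb (0.75). Cells with both a Cd74 and a Mif UMI at 1000 UMIs made up 3.23%, 3.85%, 1.6% and 13% of Gli1 KO JAK2V617F, Gli1 KO JAK2WT, WT JAK2V617F and WT JAK2WT.

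Cd44, a hyaluronan receptor and the signalling partner of CD74, was found across the cell types, with a UMI in 47.0%, 51.4%, 46.0% and 35.6% of the cells of Gli1 KO JAK2V617F, Gli1 KO JAK2WT, WT JAK2V617F and WT JAK2WT before thinning. The overall level was 53.2 CPM in Gli1 KO JAK2V617F, 55.9 CPM in Gli1 KO JAK2WT, 49.5 CPM in WT JAK2V617F and 77.5 CPM in WT JAK2WT. Macrophages had 312 CPM in Gli1 KO JAK2WT and 177 CPM in WT JAK2WT. Cluster 30 had 211 CPM in WT JAK2WT but 54.3 and 94.5 CPM in Gli1 KO JAK2V617F and Gli1 KO JAK2WT. Neutrophils had 143, 145, 115 and 128 CPM in the 4 libraries, values that mix clusters 17 and 26. Cd44 ran from 140 to 281 CPM in cluster 17. In cluster 26 it ran from 55.8 to 88.3 CPM outside Gli1 KO JAK2WT. Basophils were low, with 20.1, 12.0, 18.8 and 45.1 CPM, and HSC/MPP lay between with 49.5, 60.5, 44.4 and 80.2 CPM. After thinning, HSC/MPP with a Cd44 UMI made up 4.35%, 4.47%, 4.09% and 3.07%, so the higher CPM of WT JAK2WT was not seen in the share of cells and no order is read from it. Cd44 lies on chromosome 2 (102811141 to 102901665, minus strand). Its closest genes, Ubl3 (r = 0.75) and Kctd12 (0.75), tracked it more loosely than those of Mif or Cd74.

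Few cells were seen with transcripts of both CD74 and CD44, the pair that forms the classic MIF receptor. At 1000 UMIs they were 0.679% of Gli1 KO JAK2V617F, 1.06% of Gli1 KO JAK2WT, 0.321% of WT JAK2V617F and 2.6% of WT JAK2WT. Conventional dendritic cells had 22.2% (8.62% to 42.3%) in Gli1 KO JAK2WT and 11.2% (7.0% to 16.8%) in WT JAK2WT, and macrophages 15% (3.21% to 37.9%) and 17.5% (8.75% to 29.9%). In HSC/MPP the share was 0.259%, 0.993%, 0% and 0.877% in the 4 libraries, where 0 of 367 cells in WT JAK2V617F allows up to 1.00%. At this depth a cell with both proteins would often be missed.

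Cxcr4, the receptor of the niche chemokine CXCL12 and an alternative partner for MIF, was high in monocytes. They had 121 CPM in Gli1 KO JAK2V617F, 133 CPM in Gli1 KO JAK2WT, 108 CPM in WT JAK2V617F and 193 CPM in WT JAK2WT. Cluster 11, with Irf8 and Cox6a2, had 116, 108 and 148 CPM in Gli1 KO JAK2V617F, Gli1 KO JAK2WT and WT JAK2WT. HSC/MPP were low, with 27.4, 27.7, 27.5 and 46.7 CPM, as were erythroid (25.3 to 32.7 CPM) and plasma cells (17.9 to 33.9 CPM). Rassf4 (r = 0.74), Zbtb18 (0.73) and the myeloid gene Ly86 (0.72) were most like it. Cxcr4 lies on chromosome 1 (128588199 to 128592293, minus strand).

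Neutrophils showed the widest difference in Cxcr4 between transductions. They had 41.8 CPM (36.0 to 48.3) in Gli1 KO JAK2V617F and 177 CPM (122 to 248) in Gli1 KO JAK2WT, and 47.1 CPM (39.4 to 55.8) in WT JAK2V617F and 126 CPM (106 to 148) in WT JAK2WT. At 1000 UMIs, 3.91% and 4.93% of neutrophils had a Cxcr4 UMI with JAK2V617F in Gli1 KO and WT, against 24.1% and 18.7% with JAK2WT. The JAK2V617F libraries were lower in both genotypes, with 256 and 203 neutrophils behind them, against 29 and 123 with JAK2WT. Cluster 17, led by Retnlg and Mmp9, carried the difference, with 37.3 and 226 CPM of Cxcr4 in Gli1 KO JAK2V617F and Gli1 KO JAK2WT, and 41.3 and 208 CPM in WT JAK2V617F and WT JAK2WT. In cluster 26, led by Camp and Chil3, the values were 57.9 and 79.6 CPM in Gli1 KO, the second from 6 cells, and 57.9 and 105 CPM in WT. Cd74, which neutrophils are not known for, moved with Cxcr4. Neutrophils had 12.7 and 241 CPM of Cd74 in the Gli1 KO pair and 20.7 and 451 CPM in the WT pair. These values mix clusters 17 and 26. In cluster 17 Cd74 ran from 12.4 to 1927 CPM over the 4 libraries, with a median of 193 CPM. In cluster 26 it ran from 13.4 to 73.1 CPM outside Gli1 KO JAK2WT. At 1000 UMIs, 1.93% to 17.4% of the cluster 17 cells of a library had a Cd74 UMI. The source of this Cd74 was not tested. Median UMIs of neutrophils were 13911, 4063, 10678 and 6076. The Cxcr4 shares at 1000 UMIs are at equal depth, and the part of free RNA in the Cxcr4 difference was not tested.

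**Figure D3:**
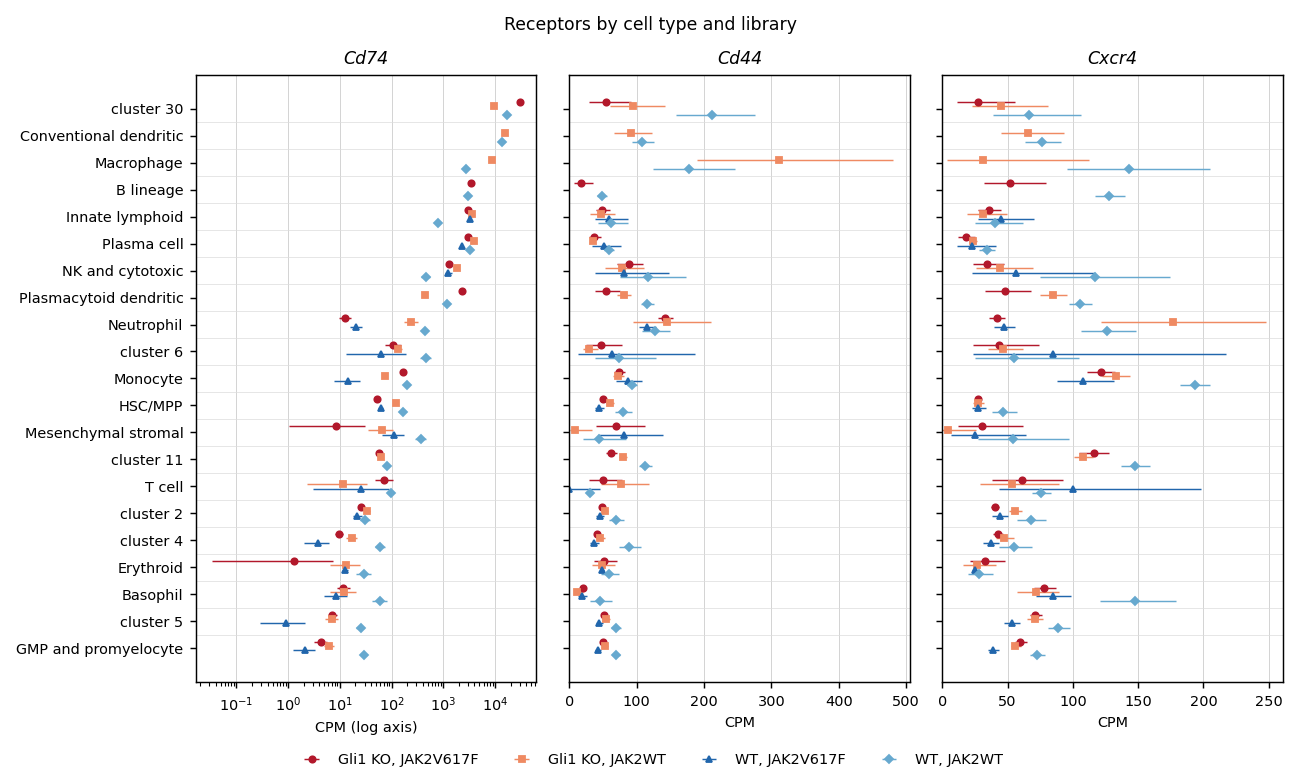
Level of Cd74 (log axis), Cd44 and Cxcr4 (axes from 0), all in CPM, in the types and clusters with at least 20 cells in more than 1 library. Rows follow the median Cd74 level, symbols are libraries and bars 95% Poisson intervals. Cd74 spans from under 10 CPM to 31131 CPM, and Cxcr4 of neutrophils splits into 41.8 and 47.1 CPM with JAK2V617F and 177 and 126 CPM with JAK2WT.

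Ackr3, the atypical receptor that scavenges CXCL12 and also binds MIF, was rare and found mainly in stromal and plasma cells. The kept cells held only 20 Ackr3 UMIs in Gli1 KO JAK2V617F, 16 in Gli1 KO JAK2WT, 14 in WT JAK2V617F and 31 in WT JAK2WT. Of these, 16, 0, 13 and 13 came from the 38 to 45 stromal cells of each library, and 3, 12, 0 and 13 from plasma cells. The stromal level was 68.9 CPM in Gli1 KO JAK2V617F, 0 in Gli1 KO JAK2WT (upper bound 17.0 CPM), 81.1 CPM in WT JAK2V617F and 64.3 CPM in WT JAK2WT. The plasma cell level was 1.63, 1.12, 0 and 3.34 CPM in that order.

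Within the stroma, Ackr3 and its ligand Cxcl12 were in different clusters. Cluster 32, led by Dcn, Apod, Myoc and Gsn, held 15 Ackr3 UMIs in Gli1 KO JAK2V617F, 0 in Gli1 KO JAK2WT, 13 in WT JAK2V617F and 13 in WT JAK2WT, and cluster 29 held 1 in all. Cluster 29, led by Cxcl12, Spp1 and Igfbp5, had 9537, 20615, 5473 and 8009 CPM of Cxcl12, against 22.2, 74.1, 556 and 39.1 CPM in cluster 32. Stroma as a whole held 95.8%, 97.6%, 97.2% and 89.4% of the Cxcl12 UMIs. Most stromal cells carried Xist (31 of 38, 39 of 41, 40 of 43 and 42 of 45) although the Gli1 KO donors' cells carried Y-linked genes, and Xist is the mark of female cells, the sex of the recipients. Stroma held 205 of the 270 and 475 of the 844 Xist UMIs of Gli1 KO JAK2V617F and Gli1 KO JAK2WT.

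The absence in Gli1 KO JAK2WT rested on the removal of doublets. That library kept 3 cells of cluster 32, and the barcodes removed as doublets held 90 Ackr3 UMIs in 15 barcodes, of which 14 had at least 10 UMIs of the fibroblast gene Dcn and 12 had none of the leukocyte gene Ptprc. With doublets kept, the stromal level was 68.4 CPM in Gli1 KO JAK2V617F, 212 CPM in Gli1 KO JAK2WT (170 to 261), 80.9 CPM in WT JAK2V617F and 60.5 CPM in WT JAK2WT. The value of 0 is therefore not read as a difference between the groups. Ackr3 lies on chromosome 1 (90203980 to 90216751, plus strand), on the same chromosome as Cxcr4 and Cops5.

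Cops5 was spread over the cell types, with high levels in erythroid cells and progenitors. Erythroid cells had 116 CPM in Gli1 KO JAK2V617F, 109 CPM in Gli1 KO JAK2WT, 131 CPM in WT JAK2V617F and 88.1 CPM in WT JAK2WT, and plasma cells had 19.5, 14.6, 31.2 and 17.5 CPM. HSC/MPP had 93.1, 103, 94.5 and 50.6 CPM. In 12 of the 15 types with at least 20 cells in every library, WT JAK2WT was the lowest, and it was never the highest. Eif4h (r = 0.94), Hnrnpf (0.94) and Snrnp40 (0.93), which act in translation initiation and RNA processing, were most like Cops5. Cops5 lies on chromosome 1 (10024601 to 10038168, minus strand) and overlaps Cspp1 on the other strand.

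The libraries were compared within 6 classes that had at least 100 cells in each: HSC/MPP, granulocyte-monocyte progenitors, innate lymphoid cells and clusters 2, 4 and 5. Class levels were averaged with the same weights in all libraries, and ratios have 10 CPM added to both values. A member counted as apart at 1.5-fold or more, among the 6 with at least 10 CPM, since Ackr3 was at 0 or near it in these classes.

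JAK2V617F against JAK2WT in Gli1 KO marrow put 0 of 6 members 1.5-fold apart, where 0.521% of 8059 genes were. Mif averaged 752 CPM in Gli1 KO JAK2V617F and 742 CPM in Gli1 KO JAK2WT, a log2 ratio of 0.02 (-0.003 to 0.04). The classes differed, since Mif was higher with JAK2V617F in cluster 5 (log2 0.38) and lower in granulocyte-monocyte progenitors (-0.23). Cd74 averaged 361 and 447 CPM (log2 -0.30), Cd44 48.8 and 53.9 CPM (-0.12), and Ddt, Cxcr4 and Cops5 lay within 0.05 of a log2 ratio of 0. Without the innate lymphoid class the Cd74 ratio was -0.78, past the limit, and in HSC/MPP alone it was -1.08.

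In WT marrow, JAK2V617F against JAK2WT put 3 of 6 members 1.5-fold apart, against 6.41% of 8201 genes. Cops5 averaged 103 CPM in WT JAK2V617F and 59.2 CPM in WT JAK2WT (log2 0.71), and was higher with JAK2V617F in all 6 classes (0.46 to 0.86). Cd44 averaged 45.0 and 73.7 CPM (log2 -0.61), lower in all 6 classes, and Cxcr4 39.0 and 61.3 CPM (-0.54), lower in 5. Mif averaged 899 CPM in WT JAK2V617F and 872 CPM in WT JAK2WT (log2 0.04), higher with JAK2V617F in granulocyte-monocyte progenitors (0.43) and cluster 5 (0.38) and lower in innate lymphoid cells (-0.64). Within the innate lymphoid class 30.7% of 8703 genes were 1.5-fold apart in this comparison. The part of its mix of clusters 8 and 24 in the Mif ratio was not tested. Cd74 averaged 392 and 156 CPM (log2 1.28), but this direction came from the innate lymphoid class alone. The mix of clusters 8 and 24 differed there, and within each of them Cd74 was also higher in WT JAK2V617F than in WT JAK2WT. The part of each in the ratio was not tested. Without the innate lymphoid class the ratio was -1.32, and in HSC/MPP it was -1.28.

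Both JAK2V617F libraries set against each other, Gli1 KO over WT, had 0 of 6 members 1.5-fold apart, with 0.841% of 7962 genes. Mif averaged 752 CPM in Gli1 KO JAK2V617F and 899 CPM in WT JAK2V617F (log2 -0.25, -0.28 to -0.23), lower in Gli1 KO in 5 of 6 classes and furthest in granulocyte-monocyte progenitors (-0.51). Ddt averaged 76.8 and 90.8 CPM (-0.22), and the remaining members lay between -0.12 and 0.16.

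With JAK2WT, Gli1 KO over WT put 2 of 6 members 1.5-fold apart, against 2.6% of 8215 genes. Mif averaged 742 CPM in Gli1 KO JAK2WT and 872 CPM in WT JAK2WT (log2 -0.23), and Ddt 76.6 and 93.1 CPM (-0.25), each within 1.5-fold. Mif was lower in Gli1 KO in 5 of 6 classes and Ddt in all 6. Over the 15 types with at least 20 cells in each library, Mif was lower in the Gli1 KO library in 11 with JAK2V617F and in 13 with JAK2WT. Cops5 averaged 98.4 and 59.2 CPM (log2 0.65) and Cd44 53.9 and 73.7 CPM (-0.39). Cd74 averaged 447 and 156 CPM (1.46), again through the innate lymphoid class, and the ratio was -0.54 without it.

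WT JAK2WT, the shallow library, is the lower or higher partner in each comparison with a member past the limit. Its HSC/MPP had 50.6 CPM of Cops5, and at 1000 UMIs 4.82% (2.43% to 8.47%) of its HSC/MPP had a Cops5 UMI, against 7.83%, 8.93% and 8.72% in the other libraries, intervals that overlap. With every cell thinned to 1000 UMIs, the ratio of WT JAK2V617F over WT JAK2WT was 0.81 for Cops5 and 0.92 for Cd74, both still past 1.5-fold, and -0.35 for Cd44, within it. Thinned ratios of Gli1 KO JAK2WT over WT JAK2WT were 0.51 for Cops5, within 1.5-fold, and 0.91 for Cd74. A donor sex effect on the ratios of Gli1 KO over WT cannot be told apart from the genotype.

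**Figure D4:**
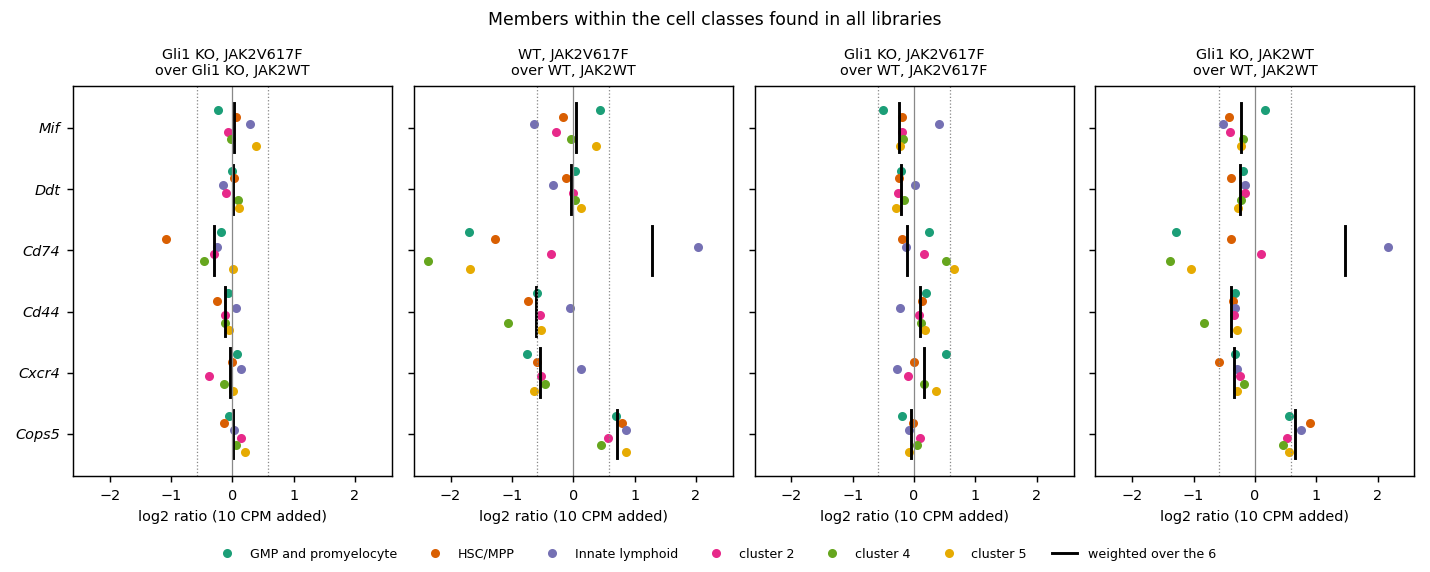
Log2 ratios (10 CPM added) of 6 members in the 4 comparisons, with a point for each of 6 classes and a black bar for the weighted value; dotted lines mark 1.5-fold. Cops5 lies right of 0 in all classes in the WT panel and the JAK2WT panel, and the Cd74 bar there lies at 1.28 and 1.46 while most of its points lie left of 0.

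Partner genes were described in lists chosen with earlier results of these data known. The 14 MHC class II and invariant chain genes had 0 higher and 2 lower in Gli1 KO JAK2V617F over Gli1 KO JAK2WT, 3 higher and 0 lower in WT JAK2V617F over WT JAK2WT, 0 in either direction in Gli1 KO JAK2V617F over WT JAK2V617F, and 5 higher and 0 lower in Gli1 KO JAK2WT over WT JAK2WT, of 11, 12, 10 and 12 measured. Their medians were -0.26, 0.27, -0.00 and 0.34, beside 0.01, 0.05, -0.01 and 0.04 for all genes, of which 0.521%, 6.41%, 0.841% and 2.6% were 1.5-fold apart in those comparisons. H2-Aa averaged 153 CPM in WT JAK2V617F and 61.5 CPM in WT JAK2WT (log2 1.19), and 234 CPM in Gli1 KO JAK2WT (1.77 over WT JAK2WT). It shares the innate lymphoid cluster 24 with Cd74, so the same limit applies to it.

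The 9 other COP9 subunits followed Cops5 in part. Their median was 0.11, 0.34, -0.01 and 0.26 in the same order of comparisons. The limit was passed by 1 of 9, Gps1, with 69.1 CPM in WT JAK2V617F and 37.1 CPM in WT JAK2WT (log2 0.75), where 6.41% of all genes passed it. Cops6 had 123 and 83.2 CPM there (0.52). Cops9, the smallest subunit, went the other way, with 143 CPM in WT JAK2V617F and 194 CPM in WT JAK2WT (-0.42).

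Of the 5 CD44 ligands and linkers measured, Ezr, which ties CD44 to actin, was the 1 past the limit, with 111 CPM in WT JAK2V617F and 66.8 CPM in WT JAK2WT (log2 0.65). Of all genes, 6.41% passed it in that comparison and 0.521% in Gli1 KO marrow. In Gli1 KO over WT, 0.841% passed with JAK2V617F and 2.6% with JAK2WT. Single genes of a list are described beside these shares and not read as a result of the list. Srgn, a proteoglycan ligand of CD44, was abundant and even, with 2762, 2356, 2346 and 2274 CPM. Among the 10 signalling genes measured, Akt1 had 98.1 CPM in WT JAK2V617F and 57.1 CPM in WT JAK2WT (0.69), and Pik3cd, a kinase subunit upstream of it, 25.6 and 46.4 CPM (-0.66). The cell cycle gene Ccnd1 was the 1 past the limit in both comparisons of genotypes, with 18.2 CPM in Gli1 KO JAK2V617F and 42.9 CPM in WT JAK2V617F (-0.91), and 16.5 CPM in Gli1 KO JAK2WT and 43.3 CPM in WT JAK2WT (-1.01). Pik3cd and Ccnd1 lay under the level set for naming and were named after their values were seen. None of the 10 intracellular binders of MIF passed in any comparison, with Hsp90ab1 at 4299 CPM in WT JAK2V617F and 3144 CPM in WT JAK2WT (0.45). Of the other MIF and chemokine receptor partners, 5 of 11 were measured and none passed, with Grk6, a receptor kinase, at 54.1 CPM in WT JAK2V617F and 38.5 CPM in WT JAK2WT (0.40).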

How the data were processed

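Droplet single-cell RNA-seq (10x Single Cell 3′) of 4 libraries was used, each pooling 3 mice. The deposited values are raw UMI counts per gene and barcode, made by the authors. The submitters' processing notes name mm10, Cell Ranger 4.0.0 and Seurat 4.0.4. Hashing libraries were not analysed here, so cells were not traced to single mice.

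Cells with at least 500 genes, 1000 UMIs and under 10% mitochondrial UMIs were kept. Barcodes removed as doublets by Scrublet (assumed rate 0.8% per 1000 barcodes) numbered 455, 229, 170 and 791 in Gli1 KO JAK2V617F, Gli1 KO JAK2WT, WT JAK2V617F and WT JAK2WT. Cells were clustered without batch correction (scanpy 1.11.5, 2000 variable genes, 30 components, 15 neighbours, Leiden resolution 1), leaving the members, Cxcl12, Cxcr2, sex-linked genes and GFP out. Clusters were named from 20 marker lists, with thresholds set after the clusters were seen. Counts were summed per type and library and given as CPM, and the 4 comparisons used classes with at least 100 cells in every library, weighted by mean class share. The scripts were tested on simulated data. Named genes were the members, up to 2 highest and 2 lowest per partner list at 50 CPM or more, and the 5 genes most correlated with a member. The members and lists were chosen with earlier results of these data known. Of 31054 gene IDs, 30902 matched GENCODE annotation, and promoters of 5 of 7 members, all but Cd74 and Cops5, were taken from RefSeq. Alternatives were another pseudocount, weighting, cell filter, doublet handling, resolution, scaling, depth and class set.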

Additional observations from a re-analysis of the deposited data

Results flagged for a closer look

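The Cd74 log2 ratio of JAK2V617F over JAK2WT was -0.30 in Gli1 KO marrow and 1.28 in WT marrow, opposite directions in the 2 genotypes. The Cd74 ratio of Gli1 KO over WT was -0.12 with JAK2V617F and 1.46 with JAK2WT. The Cxcr4 ratio of Gli1 KO over WT was 0.16 with JAK2V617F and -0.34 with JAK2WT. With 1 library per group these differences were not tested. The Cd74 values for WT marrow and for JAK2WT turned below 0 without the innate lymphoid class, so the opposite directions of Cd74 do not hold across the other classes. In that class WT JAK2WT had 17 cells of the Cd74-rich cluster 24 beside 155 of cluster 8. Within each of these clusters Cd74 was also lower in WT JAK2WT than in WT JAK2V617F and Gli1 KO JAK2WT. The part of the mix was not tested.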

How the results depend on the processing

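Mif was lower in Gli1 KO than in WT in 16 of 16 alternatives with JAK2V617F and in 16 of 16 with JAK2WT, and Cops5 was lower in WT JAK2WT in 16 of 16 in both comparisons with it. In the order JAK2V617F over JAK2WT in Gli1 KO, the same in WT, Gli1 KO over WT with JAK2V617F, and the same with JAK2WT, the Mif ratio over all kept cells was 0.15, 0.33, -0.22 and -0.033. With the stricter cell filter it was -0.058, -0.011, -0.34 and -0.29, and without granulocyte-monocyte progenitors 0.11, -0.072, -0.17 and -0.35. In WT marrow it was 0.14 at resolution 0.5, -0.021 at resolution 1.5, 0.11 without HSC/MPP, 0.11 without cluster 2 and -0.022 without cluster 5. In Gli1 KO marrow it was 0.047 with equal weights and -0.055 without cluster 5. With JAK2V617F, Gli1 KO over WT was -0.23 with equal weights, -0.29 at resolution 0.5, -0.22 at resolution 1.5, -0.22 after thinning and -0.28 without innate lymphoid cells. With JAK2WT it was -0.17 at resolution 0.5, -0.26 at resolution 1.5, -0.19 after thinning, -0.17 without HSC/MPP and -0.19 without cluster 2.

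Cd74 reversed in WT marrow and, beside it, in Gli1 KO over WT with JAK2WT: -3.27 and -0.44 over all kept cells, -1.24 and -0.49 with the stricter filter, -1.28 and -0.58 at resolution 0.5, and -1.32 and -0.54 without innate lymphoid cells. In Gli1 KO over WT with JAK2V617F, Cd74 (-0.12) was above 0 in 3 of 16 alternatives, at 1.58 over all kept cells, 0.20 at resolution 0.5 and 0.0038 without innate lymphoid cells. The stricter filter and resolution 0.5 also left that class out of the matched set. The count of members 1.5-fold apart became 1 in Gli1 KO marrow over all kept cells, with the stricter filter and without innate lymphoid cells, and 1 in Gli1 KO over WT with JAK2V617F over all kept cells. It became 1 in WT marrow with 50 CPM added. In WT marrow Cd44 stayed past 1.5-fold in 9 of 16 alternatives (range -0.68 to -0.35), Cops5 in 15, and Cxcr4, within it as reported, passed in 4. Cops5 in Gli1 KO over WT with JAK2WT stayed past it in 11 of 16. In Gli1 KO over WT with JAK2WT it became 1 with 50 CPM added, over all kept cells, with the stricter filter, with doublets kept, at resolution 0.5, without HSC/MPP and without innate lymphoid cells. Where no value shows it, the cause was not tested.

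No paired analysis was possible because each group was 1 library and no result came from a test. Depth limits Ackr3, with 14 to 31 UMIs per library, and joint detection of receptors.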
